A study of Homo sapiens with 18 samples.

Results

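The 40 genes described here encode serum response factor, its myocardin-related coactivators, and the actin cytoskeleton proteins that this pathway is known to drive, from smooth-muscle-type calponins to filamins, tropomyosins and focal adhesion proteins. They were chosen by name from knowledge of the pathway, though with earlier results of these data known. Each was looked up by symbol, or an earlier symbol of the same gene, among the 41440 genes found in any of the 3 tables. All 40 were in the 22Rv1 and DU145 tables, and 38 were in that of C4-2B. RNA was sequenced from 3 human prostate cancer cell lines, each with 3 EMD knockdown and 3 control libraries, 18 in all. C4-2B is a castration-resistant line derived from LNCaP, 22Rv1 came from a relapsed xenograft, and DU145 from a brain metastasis. The labels' protocols describe siRNA against EMD or scrambled siRNA, delivered by lipid transfection in all lines, with the medium changed after 24 hours. The names of the DU145 knockdown libraries carry the prefix shEMD, which disagrees with that protocol, and the labels do not settle the reagent. Each line has its own table and batch label, and DU145 was grown in another medium, so line, batch and medium cannot be told apart. The labels say triplicates and not whether these were separate cultures, so the p-values measure the spread between these libraries, which may be technical.

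Serum response factor, SRF, binds a short A/T-rich element called the CArG box. Its coactivators MRTFA and MRTFB are held by monomeric actin, and when actin polymerizes they are released, gather in the nucleus and switch on SRF targets, many of which encode actin and actin-binding proteins. Emerin, the EMD product, is an inner nuclear membrane protein that can bind actin filaments, and cells lacking it have been reported to handle nuclear actin and MRTF abnormally. In the prostate, high levels of calponin, transgelin and smooth-muscle actin are known from the stromal muscle more than from the epithelium.

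The CArG box was looked for in RefSeq promoter windows of GRCh38.p14, each running from 250 bases before to 50 bases after an annotated start, on both strands, overlapping matches included. A window was found for 36 of the 40 genes, and 11 of these (30.6%) held at least 1 box in at least 1 window, against 438 of 27305 genes (1.6%) in the whole promoter table. The 11 genes were ACTG1, ACTN1, CNN2, FBLIM1, FHL1, FHL2, FLNA, SRF, SVIL, TES and TPM4. Of all windows, 13 of the 80 that belong to the set (16.2%) held a box, against 454 of 35116 (1.29%). Overlapping windows of FHL2 among them hold the same box. The set was chosen from knowledge of SRF targets, so its higher share may follow from that choice. It also has more windows per gene, 80 for 36 genes against 35116 for 27305, which raises the share of genes with a match. ACTB, MYL9, PARVA and TAGLN had no window in the table. TPM1 and CSRP1, which fell in every line, had windows without a box. A match is a description of the letters, and binding was not measured. The 6 promoters below are shown because they belong to genes the results turn on: SRF, CNN2 and TPM4, which fell in every line, and FLNA, FBLIM1 and ACTG1, which moved in different directions. Each is written 5′ to 3′ on the strand of its gene, with the CArG box in capitals.
SRF, chr6:43171019-43171318, strand +: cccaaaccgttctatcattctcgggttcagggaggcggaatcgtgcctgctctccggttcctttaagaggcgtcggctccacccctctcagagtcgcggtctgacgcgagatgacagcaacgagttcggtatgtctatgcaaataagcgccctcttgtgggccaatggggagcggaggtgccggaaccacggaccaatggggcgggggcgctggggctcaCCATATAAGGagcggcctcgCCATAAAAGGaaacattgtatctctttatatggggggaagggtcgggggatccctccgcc
CNN2, chr19:1026358-1026657, strand +: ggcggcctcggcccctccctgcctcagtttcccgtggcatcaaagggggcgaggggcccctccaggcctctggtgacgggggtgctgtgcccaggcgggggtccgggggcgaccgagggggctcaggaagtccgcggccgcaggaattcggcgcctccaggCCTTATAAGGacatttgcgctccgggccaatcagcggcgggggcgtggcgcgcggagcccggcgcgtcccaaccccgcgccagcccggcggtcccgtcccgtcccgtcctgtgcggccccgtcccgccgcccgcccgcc
TPM4, chr19:16067288-16067587, strand +: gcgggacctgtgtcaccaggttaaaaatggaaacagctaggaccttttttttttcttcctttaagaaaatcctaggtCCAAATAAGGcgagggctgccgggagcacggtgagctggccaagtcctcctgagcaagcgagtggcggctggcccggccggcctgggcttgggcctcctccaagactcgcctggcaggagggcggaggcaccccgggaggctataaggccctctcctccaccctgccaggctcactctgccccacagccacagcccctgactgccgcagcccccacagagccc
FLNA, chrX:154374585-154374884, strand -: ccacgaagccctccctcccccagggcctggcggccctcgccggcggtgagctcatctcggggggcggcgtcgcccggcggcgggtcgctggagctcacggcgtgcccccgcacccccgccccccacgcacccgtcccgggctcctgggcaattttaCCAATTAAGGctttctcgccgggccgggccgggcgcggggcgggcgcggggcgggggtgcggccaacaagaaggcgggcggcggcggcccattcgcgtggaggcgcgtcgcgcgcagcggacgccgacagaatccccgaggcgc
FBLIM1, chr1:15758545-15758844, strand +: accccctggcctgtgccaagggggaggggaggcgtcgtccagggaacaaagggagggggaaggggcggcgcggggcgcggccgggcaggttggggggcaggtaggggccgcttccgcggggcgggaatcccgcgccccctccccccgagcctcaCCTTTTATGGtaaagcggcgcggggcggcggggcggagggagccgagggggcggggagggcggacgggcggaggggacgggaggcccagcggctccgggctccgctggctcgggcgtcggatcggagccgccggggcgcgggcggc
ACTG1, chr17:81512750-81513049, strand -: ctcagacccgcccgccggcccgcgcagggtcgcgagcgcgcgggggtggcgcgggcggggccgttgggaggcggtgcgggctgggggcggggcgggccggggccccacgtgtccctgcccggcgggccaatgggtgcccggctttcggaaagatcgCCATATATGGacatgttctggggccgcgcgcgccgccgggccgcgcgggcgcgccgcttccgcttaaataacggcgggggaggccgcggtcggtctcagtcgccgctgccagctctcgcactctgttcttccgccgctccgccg
SRF had a pair of boxes whose first bases lay 30 and 10 bases before its start. The other first bases lay 89 bases before the start in CNN2, 173 in TPM4, 94 in FLNA, 96 in FBLIM1 and 94 in ACTG1.

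EMD itself was lower in every knockdown library than in every control. It stood at 8.49, 10.0 and 6.38 CPM, read counts scaled to a common library size, in C4-2B knockdown libraries, against 67.2, 75.1 and 67.3 CPM in controls. In 22Rv1 it stood at 21.2, 19.6 and 17.5 CPM in knockdown, against 65.4, 69.7 and 60.9 CPM in control, and in DU145 at 4.61, 4.77 and 5.01 CPM in knockdown, against 45.1, 47.7 and 40.7 CPM in control (log2 fold changes -3.07, -1.73 and -3.21 in C4-2B, 22Rv1 and DU145). CPM use TMM scaling over the genes tested and are not divided by gene length, and a fold change is log2 of knockdown over control with its standard error. A gene is said to rise or fall where edgeR's quasi-likelihood test gave an adjusted p under 0.05 over all genes tested in that line. Depth was 14722733 to 25112148 reads a library in C4-2B, 15602874 to 30788078 in 22Rv1 and 21024352 to 43311727 in DU145. Marker levels below are sums of reads over the library total, without TMM. The 7 luminal prostate markers read together reached 4220.0 to 4331 CPM in C4-2B knockdown libraries and 4546 to 4612 CPM in controls, 1676 to 1695 CPM in 22Rv1 knockdown libraries and 2236 to 2352 CPM in controls, and 941 to 960.5 CPM in DU145 knockdown libraries and 1922 to 2035 CPM in controls. In DU145 KLK3 was under 1 CPM and TMPRSS2 and HOXB13 were too low to test. The 10 smooth muscle and fibroblast markers, which matter for the muscle-type genes below, together reached 1.92 to 3.40 CPM in C4-2B knockdown libraries and 2.58 to 3.40 CPM in controls, 1.10 to 2.02 CPM in 22Rv1 knockdown libraries and 7.01 to 7.31 CPM in controls, and 8.98 to 11.5 CPM in DU145 knockdown libraries and 5.59 to 10.2 CPM in controls. The 5 blood cell markers together reached 29.9 to 31.6 CPM in DU145 knockdown libraries and 92.6 to 95.7 CPM in controls. Those found in the other tables reached at most 6.31 CPM. In C4-2B, 2 of the 5 endothelial markers were found, with 12.6 to 14.8 CPM in knockdown libraries and 19.6 to 22.3 CPM in controls. Endothelial markers reached at most 2.24 CPM elsewhere. The part of these markers in the results was not tested. ACTG2 was not in the 22Rv1 table, and DES, ACTG2, COL1A2, DCN and LUM not in that of C4-2B. Of the endothelial markers, PECAM1, KDR and TIE1 were missing in C4-2B and PECAM1 and CDH5 in 22Rv1. Of the blood cell markers, PTPRC, CD3E and CD79A were missing in C4-2B and PTPRC, CD3E and LYZ in 22Rv1. All libraries came from cultured cancer cell lines, so these sums do not show that stromal, blood or endothelial cells were present. Of the 5 blood cell markers, 2 were high enough to test in DU145. Fewer cells of a type and less RNA per cell cannot be told apart in bulk libraries.

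In DU145 the knockdown libraries had less RNA for most of the set. Of 39 genes tested, 28 (71.8%) fell and 2 (5.1%) rose, against 23.6% and 24.1% of all 19377 genes tested. The median log2 fold change was -0.54, against 0.012 over all genes. The largest falls were in TAGLN, which encodes the actin-bundling protein transgelin, at -5.05, and MYL9, a regulatory light chain of myosin II, at -2.22. All 8 genes past 2-fold fell (20.5%, against 8.22% of all genes past 2-fold in either direction): TAGLN, MYL9, FBLIM1, TPM4, FLNA, CALD1, ZYX and FHL2. The share of all genes that fell past 2-fold was not counted on its own. LIMA1, which crosslinks and stabilizes actin filaments, and FHL1, a LIM-only protein, were the 2 that rose. CNN1, with 20 reads over the 3 knockdown libraries and 18 over the controls, was too low to test.

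In 22Rv1 the set split. Of 40 genes tested, 17 (42.5%) rose and 18 (45.0%) fell, against 33.5% and 34.3% of all 16656 genes, with a median of -0.07 against -0.004. Abundant genes such as MYL6, ACTB, TPM3 and CFL1 were among those that rose, none past 2-fold. The 9 genes past 2-fold (22.5%, against 18.4% of all genes in either direction) all fell: CNN1, FHL1, FLNC, FHL2, MYL9, SRF, PARVA, FBLIM1 and CNN3. Their share is near that of all genes, for which falls past 2-fold were not counted alone. The 9 genes include muscle-type genes. CNN1 and FHL1 passed the filter on low counts only through their controls, so a fall was the only call open to them. The summed smooth muscle markers above were also lower in these knockdown libraries, but not each marker. With TMM, LMOD1 averaged 0.396 CPM in knockdown libraries and 3.91 CPM in controls, and fell. MYH11, at 0.625 and 0.505 CPM, did not pass.

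C4-2B showed smaller changes. Of 36 genes tested, 8 (22.2%) rose and 15 (41.7%) fell, against 19.4% and 22.3% of all 15801 genes, with a median of 0.00 against 0.013. The share that rose is near that of all genes. PARVA, a focal adhesion protein that links integrin-linked kinase to actin, and ACTA2, smooth-muscle actin, rose past 2-fold, and none fell past 2-fold (5.6% in either direction, against 6.63% of all genes). ACTA2 passed the filter on low counts only through its knockdown libraries, so a rise was the only call open to it. CNN1 and FHL1 were not in this table, and CNN3 (9 knockdown and 8 control reads in all) and TPM2 (11 and 3 reads) were too low to test. The genes of the set are more abundant than most, with 27 of 36 at 30 CPM or more in C4-2B, 30 of 40 in 22Rv1 and 36 of 39 in DU145, against 43.4%, 43.3% and 33.4% of all genes tested (levels of separately scaled tables). How far this level difference moves the shares was not tested.

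**Figure D1:**
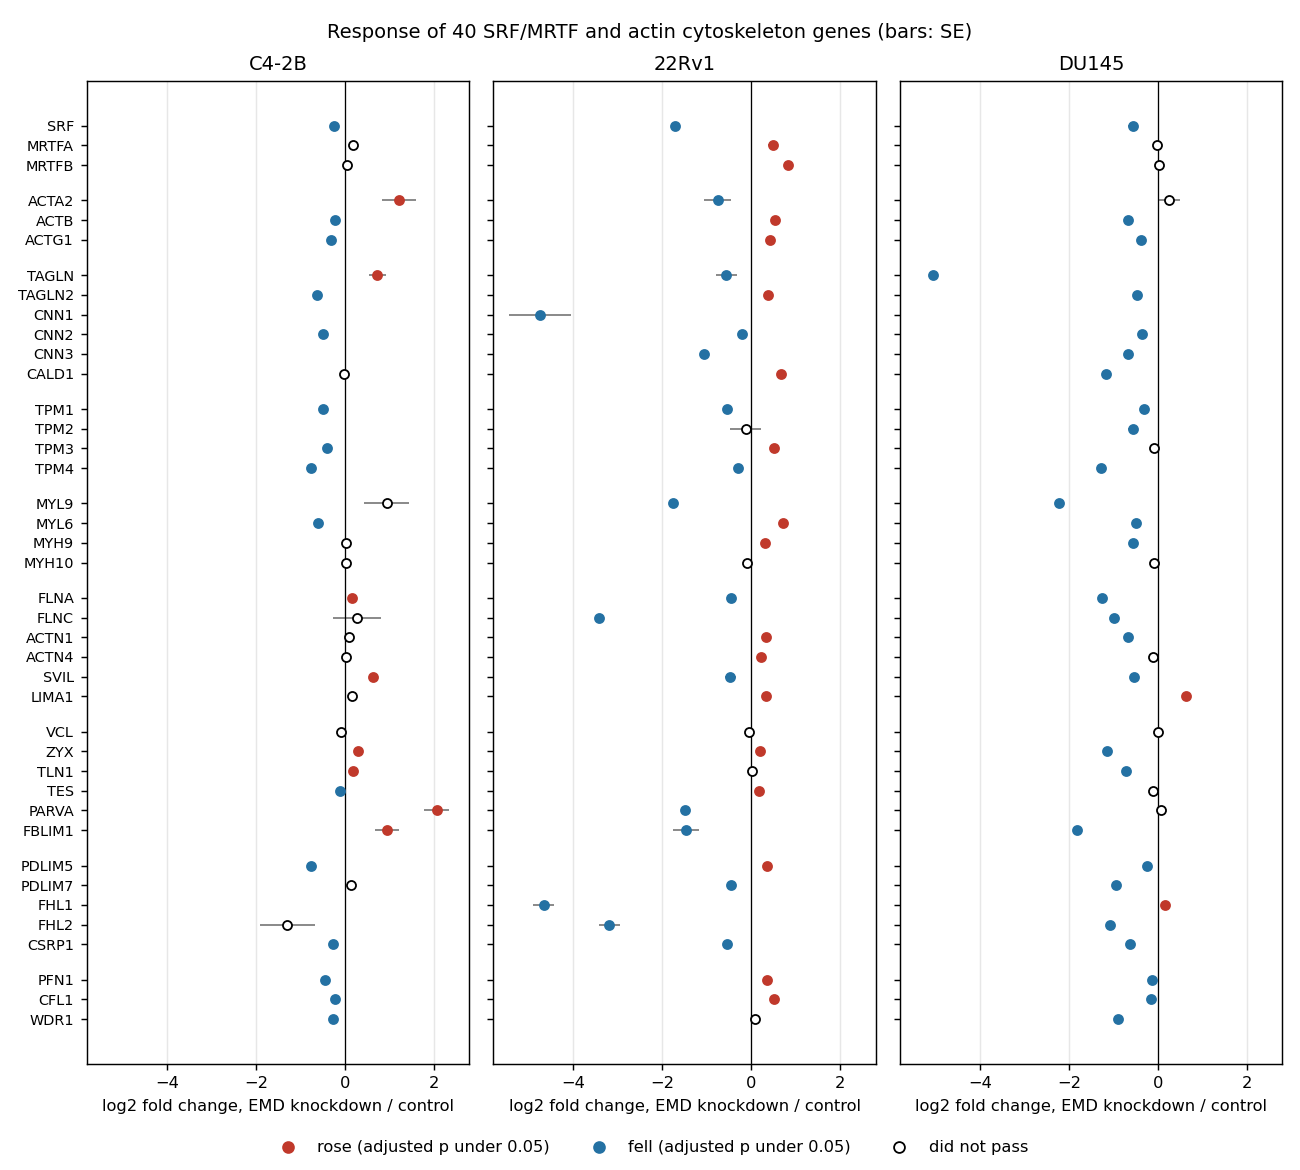
The log2 fold change of knockdown over control (x axis, log2 units) of each of the 40 genes (y axis, ordered by role) in C4-2B, 22Rv1 and DU145, with bars for the standard error, red for genes that rose, blue for those that fell, open circles for those that did not pass and no point where a gene was not tested. Points lie mostly left of 0 in DU145, with 28 of 39 fallen, and on both sides in 22Rv1 and C4-2B.

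SRF fell in all 3 lines. Its level was 151, 145 and 153 CPM in 22Rv1 knockdown libraries, against 493, 509.8 and 478 CPM in controls (log2 fold change -1.72 ± 0.04, adjusted p = 2.78e-18). In DU145 it was 81.2, 82.7 and 62.4 CPM in knockdown, against 105, 117 and 111 CPM in control (-0.56 ± 0.12, adjusted p = 0.0133), and in C4-2B 55.8, 58.5 and 59.5 CPM in knockdown, against 65.5, 68.2 and 72.4 CPM in control (-0.25 ± 0.06, adjusted p = 0.00129). In each line every knockdown library lay below every control. The DU145 call was lost without control replicate 3 (-0.53, adjusted p = 0.0570). In 22Rv1 the fall was 3.29-fold.
Both coactivators rose in 22Rv1. MRTFB stood at 61.2, 58.8 and 58.6 CPM there, against 34.6, 33.4 and 33.3 CPM in controls (0.82 ± 0.06, adjusted p = 7.80e-11), and MRTFA at 22.9, 19.5 and 19.9 CPM in knockdown, against 17.1, 12.2 and 14.6 CPM in control (0.49 ± 0.11, adjusted p = 0.000519). The groups did not overlap for either gene. In C4-2B, MRTFA was 31.8, 34.7 and 35.4 CPM in knockdown libraries and 29.6, 33.6 and 26.3 CPM in controls, and MRTFB 54.7, 64.0 and 62.9 CPM in knockdown, against 51.1, 62.0 and 60.3 CPM in control. In DU145, MRTFA was 28.9, 30.1 and 31.3 CPM in knockdown, against 30.03, 31.6 and 30.4 CPM in control, and MRTFB 43.4, 42.8 and 49.96 CPM in knockdown, against 42.9, 44.2 and 46.8 CPM in control. These 4 comparisons did not pass and their groups overlapped, with fold changes between -0.03 and 0.19. MRTFA in C4-2B passed under some other settings, at an adjusted p of 0.0310 with library totals.

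**Figure D2:**
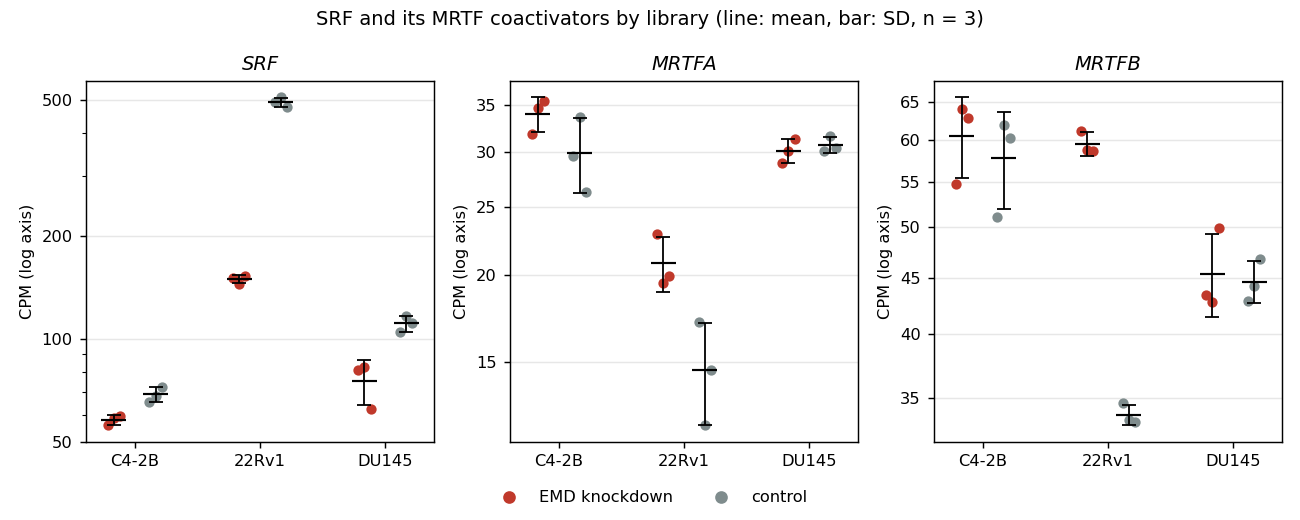
SRF, MRTFA and MRTFB levels in CPM (log axis) in each library of C4-2B, 22Rv1 and DU145, knockdown left of control, with the mean as a line and the SD as a bar (n = 3). SRF points of knockdown lie below those of controls in every line, while MRTFA and MRTFB separate, upward, in 22Rv1.

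Of the actins, cytoplasmic beta-actin and gamma-actin (ACTB and ACTG1) fell in C4-2B and DU145 and rose in 22Rv1. ACTB was 3165, 3304 and 3194 CPM in DU145 knockdown libraries, against 4943, 5309.7 and 5018 CPM in controls (-0.66 ± 0.05). In 22Rv1 it was 2500.5, 2499 and 2559 CPM in knockdown, against 1776, 1792 and 1651 CPM in control (0.53 ± 0.03), and in C4-2B 1175, 1135 and 1165 CPM in knockdown, against 1349, 1388 and 1352 CPM in control (-0.23 ± 0.03). The groups did not overlap in any line. ACTG1 followed: 2939, 3115 and 2860.2 CPM in DU145 knockdown libraries, against 3678, 4028 and 3805 CPM in control (-0.37 ± 0.05), 3197, 3083 and 3215 CPM in 22Rv1 knockdown, against 2416, 2414 and 2281 CPM in control (0.42 ± 0.03), and 919, 899.8 and 919 CPM in C4-2B knockdown, against 1123, 1158 and 1142 CPM in control (-0.32 ± 0.03). Smooth-muscle actin ACTA2 was scarce. It was 2.70, 2.57 and 2.19 CPM in C4-2B knockdown libraries, against 0.529, 1.57 and 1.05 CPM in controls (1.22 ± 0.39, adjusted p = 0.0138), a call lost without control replicate 1 (0.93, adjusted p = 0.0584). In 22Rv1 it was 1.09, 0.856 and 1.00 CPM in knockdown, against 1.71, 1.499 and 1.797 CPM in control (-0.76 ± 0.31, adjusted p = 0.0375), a call lost with DESeq2 (adjusted p = 0.0745), with cyclic loess (0.504) and without most single libraries. ACTA2 in DU145 was 1.81, 2.42 and 1.51 CPM in knockdown, against 1.86, 1.55 and 1.39 CPM in control, and did not pass. Reads of ACTA2 may be shared with ACTA2-AS1 and FAS, which overlap 30.1% of its exon bases, and the strandedness of the libraries is not given.

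Transgelin, calponins and caldesmon bind along actin filaments, and several are classical smooth-muscle products. TAGLN stood at 2.47, 2.45 and 2.16 CPM in DU145 knockdown libraries, against 79.4, 81.1 and 74.9 CPM in controls, a 33.2-fold fall (-5.05 ± 0.08, adjusted p = 8.81e-27). In C4-2B it was 6.74, 6.88 and 5.47 CPM in knockdown, against 3.51, 3.88 and 4.08 CPM in control (0.73 ± 0.19, adjusted p = 0.00359), and in 22Rv1 2.07, 1.90 and 2.00 CPM in knockdown, against 3.35, 2.69 and 2.74 CPM in control (-0.56 ± 0.23, adjusted p = 0.0356). No knockdown library crossed into the control range in any line. The 22Rv1 call was lost with DESeq2 (adjusted p = 0.0740), with cyclic loess (0.515) and without most single libraries. TAGLN2, its broadly expressed relative, was 132, 119 and 123 CPM in C4-2B knockdown libraries, against 183, 196 and 198 CPM in control (-0.63 ± 0.05), 437, 426 and 425 CPM in 22Rv1 knockdown, against 329, 346 and 319 CPM in control (0.38 ± 0.04), and 635, 659 and 583 CPM in DU145 knockdown, against 842, 891 and 847 CPM in control (-0.46 ± 0.05). It rose in 22Rv1 and fell in the other lines. CALD1, caldesmon, was 158, 158 and 156 CPM in 22Rv1 knockdown libraries, against 96.6, 99.2 and 101 CPM in control (0.67 ± 0.04), and 21.3, 23.4 and 21.6 CPM in DU145 knockdown, against 49.4, 49.9 and 49.5 CPM in control (-1.17 ± 0.06). It rose in the first and fell in the other, and in C4-2B, at -0.02, it did not pass.
Among the calponins, CNN2 fell in all 3 lines. It was 35.2, 34.2 and 36.0 CPM in C4-2B knockdown libraries, against 49.0, 50.1 and 49.2 CPM in control (-0.49 ± 0.07), 59.6, 63.2 and 63.2 CPM in 22Rv1 knockdown, against 71.3, 76.0 and 68.6 CPM in control (-0.21 ± 0.05), and 174, 179 and 175 CPM in DU145 knockdown, against 213, 237 and 227 CPM in control (-0.36 ± 0.05). No groups overlapped. CNN3 averaged 50.7 ± 1.18 CPM in knockdown libraries and 106 ± 1.31 CPM in controls in 22Rv1 (-1.06 ± 0.05) and 155 ± 5.09 CPM in knockdown libraries and 248 ± 9.31 CPM in controls in DU145 (-0.68 ± 0.05, SD, n = 3 each), and fell in both. CNN1, the smooth-muscle calponin, had 2 reads over the 22Rv1 knockdown libraries and 83 over the controls, a ratio of 0.0320 with a 95% exact interval of 0.00381 to 0.119 for counting error only. The fitted value plotted for CNN1 depends on the prior count. By library it stood at 0.0405, 0 and 0.0589 CPM in knockdown, against 1.33, 0.937 and 0.914 CPM in controls.

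Tropomyosins lie along the actin filament and set which other proteins can bind it. TPM1 and TPM4 fell in all 3 lines. TPM4 was 367, 378 and 351 CPM in DU145 knockdown libraries, against 869, 913 and 871 CPM in controls (-1.28 ± 0.05). In C4-2B it was 23.0, 23.8 and 23.5 CPM in knockdown, against 39.7, 39.7 and 38.5 CPM in control (-0.75 ± 0.08), and in 22Rv1 141, 136 and 136 CPM in knockdown, against 169, 174 and 168 CPM in control (-0.31 ± 0.04), with no overlap in any line. TPM1 was 68.2, 70.3 and 69.4 CPM in C4-2B knockdown libraries, against 99.7, 101 and 92.2 CPM in control (-0.49 ± 0.05), 58.3, 57.9 and 56.8 CPM in 22Rv1 knockdown, against 82.7, 84.1 and 86.2 CPM in control (-0.55 ± 0.05), and 166, 173 and 158 CPM in DU145 knockdown, against 209, 208 and 199.7 CPM in control (-0.31 ± 0.05), also without overlap. TPM3 moved in different directions. It was 365, 356 and 362 CPM in 22Rv1 knockdown libraries, against 249.9, 255 and 252 CPM in control (0.52 ± 0.03), and 285, 266 and 277 CPM in C4-2B knockdown, against 362, 362 and 365 CPM in control (-0.40 ± 0.04), while in DU145 (-0.09 ± 0.05) it did not pass, except with cyclic loess (adjusted p = 0.00247), a stricter filter of at least 5 CPM in 3 libraries (0.00582) and the replicate block (0.0230). TPM2 was low, averaging 6.08 ± 0.669 CPM in knockdown libraries and 9.07 ± 0.661 CPM in controls in DU145 (-0.57 ± 0.10), a fall lost in the fit of all 18 libraries (-0.56, adjusted p = 0.0543). In 22Rv1 TPM2 did not pass (-0.13 ± 0.35).

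Myosin II pulls on actin filaments and consists of heavy chains, such as MYH9 and MYH10, with regulatory and essential light chains, such as MYL9 and MYL6. MYL9 fell in DU145 to 40.8, 41.4 and 42.8 CPM in knockdown libraries, against 193, 200.002 and 187 CPM in controls (-2.22 ± 0.05, adjusted p = 4.37e-23). In 22Rv1 it was 6.65, 6.61 and 7.47 CPM in knockdown, against 25.3, 21.1 and 23.1 CPM in control (-1.75 ± 0.11, adjusted p = 1.07e-11). Both pairs of groups stood apart. In C4-2B it was near 1 CPM, at 1.35, 1.40 and 1.03 CPM in knockdown, against 0.794, 0.943 and 0.283 CPM in control, and did not pass (0.94 ± 0.50, adjusted p = 0.136), though it did in the fit of all 18 libraries (1.00, adjusted p = 0.00995). MYL6 rose in 22Rv1, with 810.1, 817 and 804 CPM in knockdown, against 462, 501 and 521 CPM in control (0.71 ± 0.04). It fell in C4-2B, with 235, 220.3 and 209.8 CPM in knockdown, against 345, 329 and 333 CPM in control (-0.60 ± 0.04), and in DU145, with 459, 478 and 462 CPM in knockdown, against 683, 670.0 and 618 CPM in control (-0.49 ± 0.05). The light chains thus went in opposite directions within 22Rv1 and in the same direction in DU145. MYH9 was 1444, 1508 and 1555 CPM in DU145 knockdown libraries, against 2103, 2359 and 2247 CPM in control (-0.57 ± 0.05), and 824, 804 and 812 CPM in 22Rv1 knockdown, against 698, 649.8 and 627 CPM in control (0.31 ± 0.04). It fell in DU145, rose in 22Rv1 and did not pass in C4-2B (0.02). MYH10 passed in no line, with fold changes from -0.10 in 22Rv1 to 0.03 in C4-2B. In 22Rv1 it passed under 4 of the alternatives, at -0.17 with library totals (adjusted p = 0.00311) and -0.24 with cyclic loess (0.000248) among them, and in DU145 under the stricter filter (-0.08, adjusted p = 0.0186).

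Filamins and alpha-actinins tie actin filaments into networks and bundles. FLNA, filamin A, fell in DU145 to 836, 875 and 876 CPM in knockdown libraries, against 1888, 2157 and 2093 CPM in controls (-1.25 ± 0.05). It fell in 22Rv1, with 265, 273 and 267 CPM in knockdown, against 384, 372 and 350.3 CPM in control (-0.46 ± 0.04), and rose in C4-2B, with 218, 244 and 239.6 CPM in knockdown, against 214, 210.0 and 199.9 CPM in control (0.17 ± 0.04). The groups did not overlap in any line. FLNA is the neighbour of EMD on chromosome X, with 4661 bases between the annotated genes in GRCh38.p14. FLNC, the filamin best known from muscle, was 14.5, 13.9 and 14.5 CPM in 22Rv1 knockdown libraries, against 160.1, 156 and 146 CPM in control (-3.43 ± 0.06, adjusted p = 6.65e-20). In DU145 it was 437, 461 and 464 CPM in knockdown, against 827, 940.0 and 934 CPM in control (-0.99 ± 0.05), and it fell in both lines, while in C4-2B it stayed at or under 1.06 CPM in every library. ACTN1 was 523, 565 and 527 CPM in DU145 knockdown libraries, against 817, 881 and 849 CPM in control (-0.66 ± 0.05), and 147, 142 and 134 CPM in 22Rv1 knockdown, against 117, 112 and 109.6 CPM in control (0.33 ± 0.04). It fell in DU145 and rose in 22Rv1, and in C4-2B (0.09 ± 0.04, adjusted p = 0.0736) it passed under some other settings only. ACTN4 rose in 22Rv1 (0.21 ± 0.03) and had 0.03 ± 0.04 in C4-2B and -0.11 ± 0.05 in DU145, which did not pass. The DU145 value passed under 6 of the alternatives, at an adjusted p of 0.0488 with DESeq2 and 0.00121 with cyclic loess among them.
SVIL, supervillin, a membrane-linked actin and myosin II binder, was 28.0, 29.6 and 26.4 CPM in C4-2B knockdown libraries, against 19.4, 19.0 and 15.8 CPM in control (0.64 ± 0.10), 7.46, 6.73 and 7.30 CPM in 22Rv1 knockdown, against 8.62, 10.1 and 11.2 CPM in control (-0.47 ± 0.13), and 36.5, 37.8 and 40.03 CPM in DU145 knockdown, against 54.1, 55.9 and 56.1 CPM in control (-0.54 ± 0.05). It rose in C4-2B and fell in the other lines, the 22Rv1 fall being lost with cyclic loess (-0.26, adjusted p = 0.0950). LIMA1 rose in DU145, with 234, 239 and 222 CPM in knockdown, against 149, 152 and 144 CPM in control (0.64 ± 0.05), and in 22Rv1 (0.32 ± 0.06). In C4-2B LIMA1 did not pass (0.17 ± 0.08), but did with library totals (0.22, adjusted p = 0.0275), with the stricter filter (0.0470), without knockdown replicate 2 (0.0427) and in the fit of all 18 libraries (0.0301).

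Focal adhesions anchor actin to integrins. PARVA, alpha-parvin, was 5.87, 4.97 and 6.26 CPM in C4-2B knockdown libraries, against 1.79, 1.57 and 0.809 CPM in controls (2.07 ± 0.28, adjusted p = 1.51e-06). In 22Rv1 it was 35.8, 31.6 and 28.3 CPM in knockdown, against 93.8, 83.7 and 92.0 CPM in control (-1.49 ± 0.07, adjusted p = 1.97e-11), and in DU145 34.9, 32.8 and 32.9 CPM in knockdown, against 30.03, 33.0 and 31.7 CPM in control (0.08 ± 0.06). It thus rose in C4-2B, where controls held under 2 CPM, fell in 22Rv1 and did not pass in DU145, except with library totals (0.13, adjusted p = 0.0468). FBLIM1, migfilin, a filamin-binding adaptor, was 3.84, 3.47 and 3.65 CPM in C4-2B knockdown libraries, against 1.52, 2.20 and 1.90 CPM in control (0.95 ± 0.27). In 22Rv1 it was 1.05, 0.979 and 1.12 CPM in knockdown, against 2.05, 3.75 and 3.03 CPM in control (-1.46 ± 0.29), and in DU145 13.3, 14.1 and 11.9 CPM in knockdown, against 44.2, 45.1 and 48.0 CPM in control (-1.81 ± 0.07). It rose in C4-2B and fell in the other lines, without overlap.
ZYX, zyxin, which is recruited to strained actin filaments, was 116, 118 and 119 CPM in DU145 knockdown libraries, against 247, 276 and 259 CPM in control (-1.15 ± 0.05), 122, 123 and 125 CPM in C4-2B knockdown, against 96.1, 103 and 103 CPM in control (0.30 ± 0.05), and 74.6, 71.8 and 75.1 CPM in 22Rv1 knockdown, against 66.1, 66.5 and 61.2 CPM in control (0.20 ± 0.05). It fell in DU145 and rose in the other lines, the 22Rv1 rise being lost with cyclic loess (0.07, adjusted p = 0.229). TLN1, talin, the integrin activator, was 478, 499 and 499 CPM in DU145 knockdown libraries, against 741, 843 and 820.1 CPM in control (-0.71 ± 0.05), and 261, 276 and 288 CPM in C4-2B knockdown, against 237, 248 and 238 CPM in control (0.19 ± 0.04). It fell in DU145, rose in C4-2B and did not pass in 22Rv1 (0.01; -0.13 and an adjusted p of 0.00647 with cyclic loess). TES, testin, a zyxin partner, was 204, 198 and 200.4 CPM in C4-2B knockdown libraries, against 213, 216 and 223 CPM in control (-0.11 ± 0.04), and 76.6, 74.8 and 73.7 CPM in 22Rv1 knockdown, against 68.2, 63.9 and 66.7 CPM in control (0.18 ± 0.05). It fell in C4-2B and rose in 22Rv1, the first lost with library totals (adjusted p = 0.202), with cyclic loess (0.121) and without knockdown replicate 2 or control replicate 3, and the other lost with cyclic loess (0.444) and library totals (0.0813). In DU145 TES did not pass (-0.10 ± 0.05), except under the stricter filter (adjusted p = 0.0163). Vinculin, VCL, passed in no line, with fold changes of -0.08 in C4-2B, -0.05 in 22Rv1 and 0.01 in DU145. In 22Rv1 VCL passed under 4 of the alternatives, at -0.13 with library totals (adjusted p = 0.00529), -0.20 with cyclic loess (0.000183), -0.11 with the stricter filter (0.0145) and -0.10 in the fit of all 18 libraries (0.0359).

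**Figure D3:**
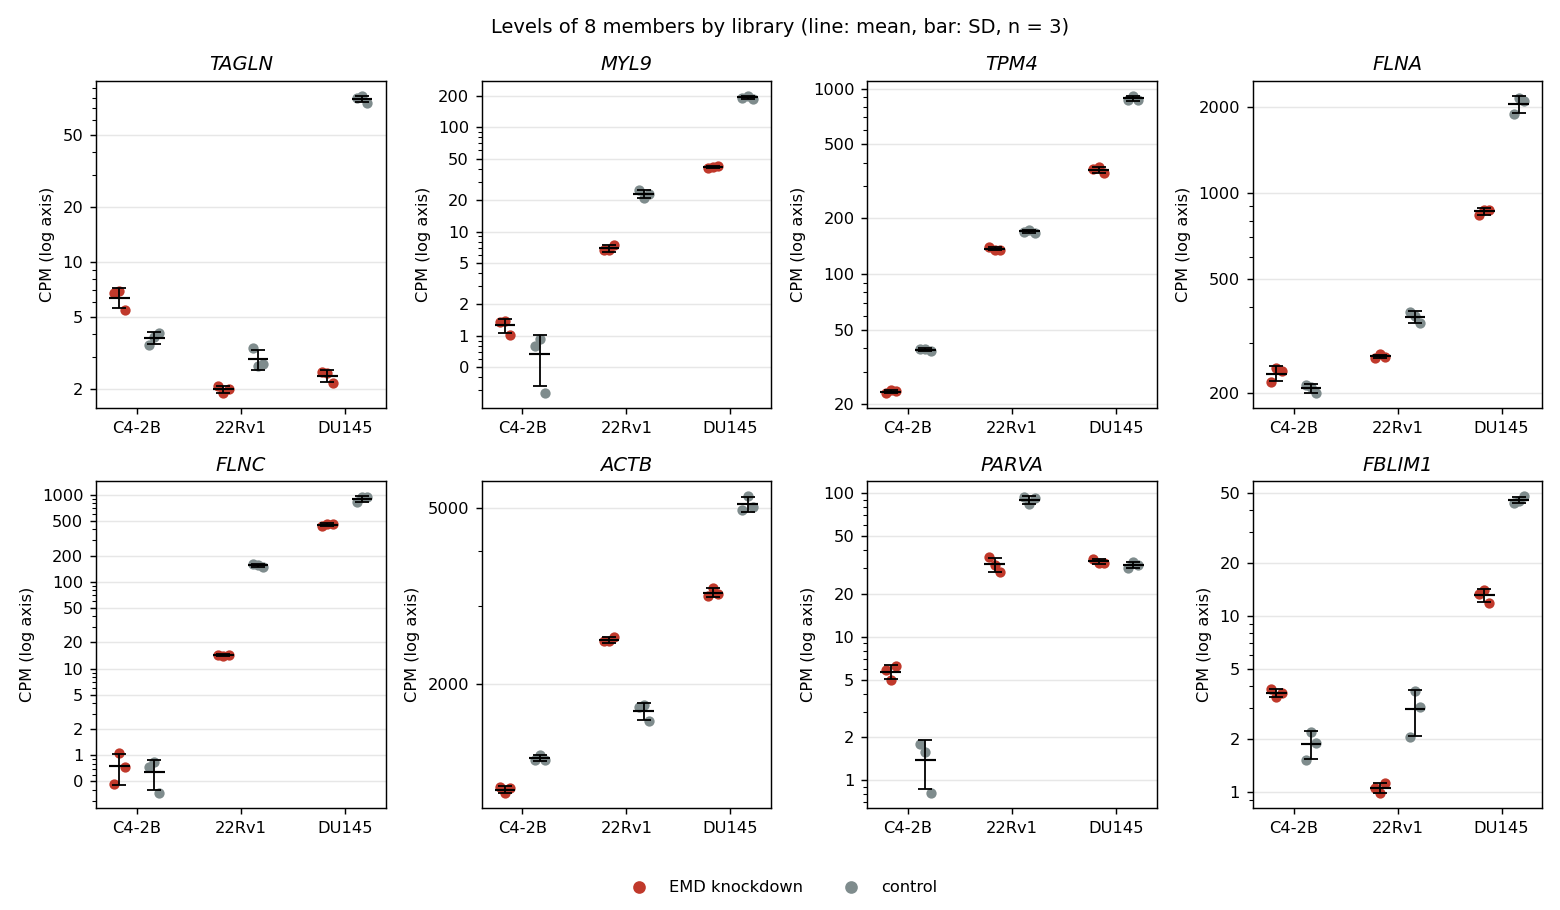
CPM (log axis) in each library for TAGLN, MYL9, TPM4, FLNA, FLNC, ACTB, PARVA and FBLIM1, by line, knockdown left of control, with the mean as a line and the SD as a bar (n = 3). TAGLN separates most in DU145, at 2.16 to 2.47 CPM in knockdown libraries and 74.9 to 81.1 CPM in controls, and PARVA separates upward in C4-2B and downward in 22Rv1.

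LIM and PDZ-LIM proteins sit on stress fibres and some of them also act as transcription cofactors. FHL1 had 0.446, 0.245 and 0.353 CPM in 22Rv1 knockdown libraries, against 8.01, 9.93 and 10.1 CPM in controls, from 21 and 714 reads in all (-4.67 ± 0.24, adjusted p = 8.63e-13). In DU145 it was 41.2, 45.2 and 45.1 CPM in knockdown, against 39.4, 38.2 and 39.9 CPM in control (0.16 ± 0.06, adjusted p = 0.0157), a rise lost with DESeq2 (adjusted p = 0.0704) and without knockdown replicate 2 (0.157) or control replicate 2 (0.0616). The groups stood apart in both lines. FHL2, a LIM-only protein that binds SRF, was 0.527, 0.979 and 0.647 CPM in 22Rv1 knockdown libraries, against 5.72, 6.31 and 7.16 CPM in control (-3.19 ± 0.24), and 43.0, 43.8 and 41.9 CPM in DU145 knockdown, against 85.8, 95.8 and 89.3 CPM in control (-1.08 ± 0.05), and fell in both. In C4-2B it was under 1 CPM in every library and did not pass (-1.29 ± 0.61), though it did with cyclic loess (-1.65, adjusted p = 0.0365) and in the fit of all 18 libraries (-1.31, adjusted p = 0.00912). PDLIM5 was 63.6, 65.4 and 65.4 CPM in C4-2B knockdown libraries, against 108, 111 and 108 CPM in control (-0.75 ± 0.05), 50.8, 49.8 and 53.7 CPM in 22Rv1 knockdown, against 42.3, 37.8 and 40.4 CPM in control (0.35 ± 0.06), and 92.3, 94.0 and 88.2 CPM in DU145 knockdown, against 104, 109.8 and 110.0 CPM in control (-0.24 ± 0.05). It rose in 22Rv1 and fell in the other lines. PDLIM7 fell in 22Rv1 (-0.45 ± 0.06) and DU145 (-0.94 ± 0.05) and did not pass in C4-2B (0.14 ± 0.09). CSRP1, a LIM protein that binds alpha-actinin, fell in all 3 lines. It was 124, 113 and 118 CPM in C4-2B knockdown libraries, against 141, 144 and 139 CPM in control (-0.26 ± 0.05), 54.6, 62.0 and 59.9 CPM in 22Rv1 knockdown, against 81.9, 89.2 and 86.4 CPM in control (-0.55 ± 0.05), and 79.8, 85.5 and 79.5 CPM in DU145 knockdown, against 122, 131 and 124 CPM in control (-0.63 ± 0.05), with no overlap in any line.

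The turnover genes keep actin monomers and filaments in exchange. PFN1, profilin, which loads monomers onto growing ends, was 726, 725 and 716 CPM in 22Rv1 knockdown libraries, against 546, 577 and 569 CPM in controls (0.36 ± 0.03), and 529.6, 485 and 489.7 CPM in C4-2B knockdown, against 698, 666 and 684 CPM in control (-0.45 ± 0.04). In DU145 it was 1755, 1875 and 1668 CPM in knockdown, against 1947, 1999 and 1865 CPM in control (-0.13 ± 0.05, adjusted p = 0.0354). PFN1 rose in 22Rv1 and fell in the other lines, with overlapping libraries in DU145, where the call was also lost with no filter and without most single libraries. CFL1, cofilin, the severing factor, was 754, 752 and 743 CPM in 22Rv1 knockdown libraries, against 522, 524 and 520.3 CPM in control (0.52 ± 0.03), 441, 412 and 424 CPM in C4-2B knockdown, against 509, 494 and 492 CPM in control (-0.23 ± 0.04), and 887, 929 and 868 CPM in DU145 knockdown, against 989, 1044 and 976 CPM in control (-0.16 ± 0.05). It rose in 22Rv1 and fell in the other lines, a DU145 call lost without knockdown replicate 1. WDR1, which helps cofilin take filaments apart, fell in DU145 (-0.90 ± 0.05) and C4-2B (-0.27 ± 0.04) and did not pass in 22Rv1 (0.08 ± 0.04).

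Across the lines, 36 of the 40 genes were tested in all 3. SRF, CNN2, TPM1, TPM4 and CSRP1 fell in all of them, 5 of 36, against 2.32% of the 13078 genes tested in all lines. None of the 36 rose in all of them, against 277 of the 13078 genes. With 36 genes, a count of 0 lies near that share. By contrast, 20 of the 36 rose in 1 line and fell in another, against 38.1% of all genes. FHL1, tested in 22Rv1 and DU145 only, did so as well. Of 21 genes that passed in both C4-2B and 22Rv1, 15 went in opposite directions (71.4%, against 58.1% of all genes passing in both). Of 19 that passed in both C4-2B and DU145, 6 did so (31.6%, against 53.3%), and of 25 in both 22Rv1 and DU145, 11 did so (44.0%, against 47.4%). As a description over genes, which are not independent, the Pearson and Spearman correlations of fold changes were -0.22 and -0.34 between C4-2B and 22Rv1 (n = 36 genes), against -0.07 and -0.09 over all genes. They were -0.17 and -0.07 between C4-2B and DU145 (n = 36 genes), and 0.15 and 0.26 between 22Rv1 and DU145 (n = 39 genes), where those over all genes lay between -0.01 and 0.01.

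The difference of the response between lines was tested in 1 fit of all 18 libraries, on 17152 genes, 38 of them from this set. It asks whether log2 knockdown over control is higher in one line than in another. The C4-2B response was above that of DU145 for 19 genes and below it for 6, against 21.2% and 24.5% of all genes. That of 22Rv1 was above DU145 for 23 and below for 8, against 25.3% and 30.4%, and C4-2B was above 22Rv1 for 14 and below for 17, against 29.1% and 27.0%. The median difference of the set was 0.38, 0.43 and -0.04, in that order, against -0.02, -0.08 and 0.06 over all genes. The response of SRF in 22Rv1 was below that in DU145 by a difference of -1.22 ± 0.10 and the response in C4-2B was above that in 22Rv1 by 1.52 ± 0.11. ACTB differed by 1.13 ± 0.05 for 22Rv1 minus DU145 and by 0.41 ± 0.05 for C4-2B minus DU145. With cyclic loess C4-2B was above 22Rv1 for 16 genes and below for 12. The 3 lines were sequenced under separate batch labels, which this test does not remove.

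Summed over the genes tested, the set took 18810.2, 19762 and 18725 CPM in DU145 knockdown libraries, against 26417, 28478 and 27129 CPM in controls. In C4-2B the sums were 7241, 7121 and 7279 CPM in knockdown, against 8205, 8288 and 8198 CPM in control, and in 22Rv1 12379.5, 12194 and 12386 CPM in knockdown, against 10403, 10443 and 10024 CPM in control. The DU145 and C4-2B sums were lower in knockdown libraries and the 22Rv1 sum higher, with no overlap. ACTB and ACTG1 weigh heavily in these sums. Without them the means were 12906 ± 379 CPM in knockdown libraries and 18414 ± 679 CPM in controls in DU145, 5142 ± 54.2 CPM in knockdown libraries and 5726 ± 19.5 CPM in controls in C4-2B, and 6635 ± 40.3 CPM in knockdown libraries and 6179.8 ± 77.3 CPM in controls in 22Rv1 (SD, n = 3 each), so the directions stayed.

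In 22Rv1 the fold change went with the level over all genes: the median was -0.479 among 3026 genes under 2 CPM and -0.333 among 3103 genes at 2 to 10 CPM, against 0.155 among 1952 genes at 100 to 300 CPM. The 8 genes of the set under 10 CPM there had medians of -1.108 under 2 CPM and -1.875 at 2 to 10 CPM, both below the medians of all genes at those levels. The 2 genes at 10 to 30 CPM had a median of -0.631, against -0.033 over all genes, the 13 genes at 30 to 100 CPM had -0.213, against 0.134, and the 6 genes at 100 to 300 CPM had 0.043, against 0.155. The 11 genes at 300 CPM or more had a median of 0.375, against 0.107. Only in that last window was the median of the set above that of all genes. Cyclic loess, which removes such trends between libraries, left FHL1 at -4.18, FHL2 at -2.79, FLNC at -3.52, CNN1 at -3.42, MYL9 at -1.64 and SRF at -1.85 in 22Rv1, and ACTB at 0.46. FBLIM1 there went to -0.90 (adjusted p = 0.0124). In DU145 no window's all-gene median exceeded 0.056 in size, and the windows at 100 to 300 CPM and above, with 8 and 16 genes of the set, had medians of -0.493 and -0.534. In C4-2B the all-gene median was 0.185 under 2 CPM and 0.129 at 2 to 10 CPM, against -0.046 at 100 to 300 CPM. The set there had medians of 0.603 (4 genes) and 0.95 (3 genes) in the first 2 windows. At 10 to 30 CPM its median was 0.39, against 0.007 over all genes, and at 30 to 100 CPM -0.37, against -0.027. It was -0.079 at 100 to 300 CPM, and -0.231, against -0.001, at 300 CPM or more.

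**Figure D4:**
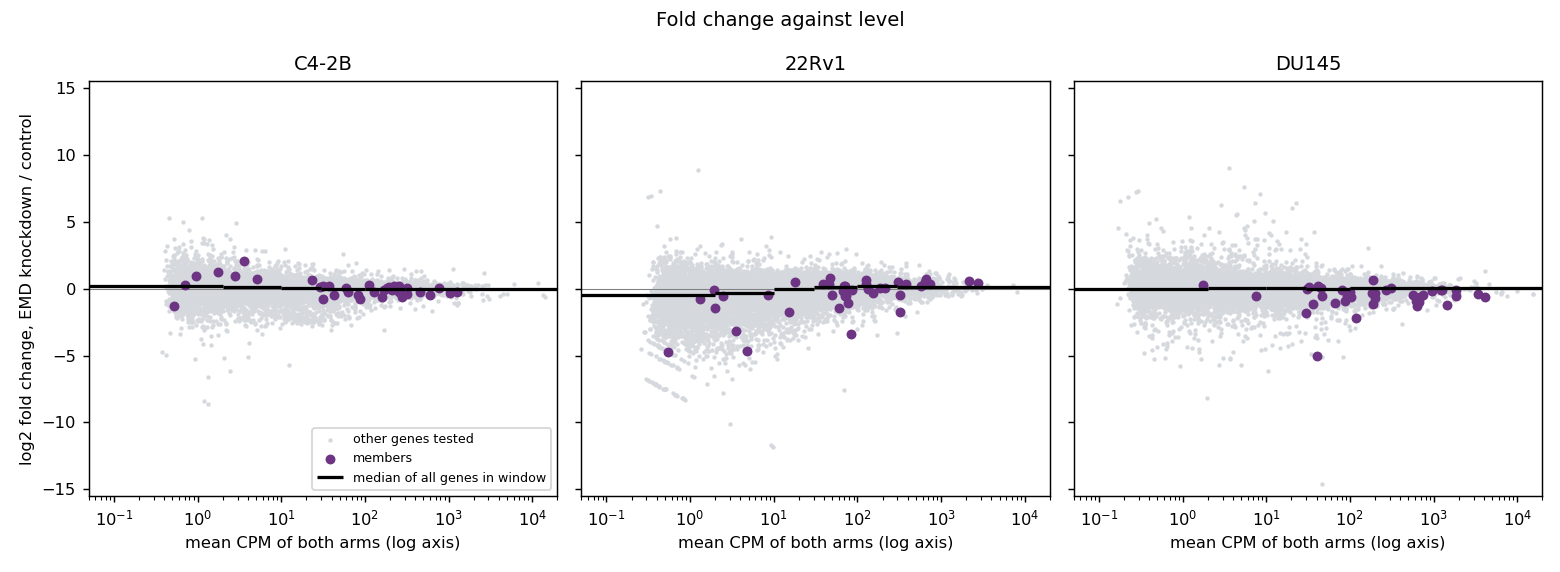
Log2 fold change of knockdown over control (y axis) against mean level in CPM (log x axis) for all tested genes in grey and the genes of the set in purple, by line, with the median of all genes in each level window as a black line. At low CPM the line dips in 22Rv1, to -0.479, and rises in C4-2B, to 0.185. It stays near 0 in DU145, where most purple points lie below it.

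Other genes of the pathway were read from 3 lists, whose counts are set against all genes tested, of which 24.1% rose and 23.6% fell in DU145, 33.5% rose and 34.3% fell in 22Rv1, and 19.4% rose and 22.3% fell in C4-2B. Of 8 genes for nuclear actin handling and SRF cofactors, 7 fell and 0 rose in DU145 (median -0.34), 4 rose and 3 fell in 22Rv1 (0.13), and 1 rose and 3 fell in C4-2B (-0.06). With 8 genes, the 22Rv1 counts lie near the shares of all genes. MICAL1, an enzyme that oxidizes actin, fell in all 3 lines: it was 98.5, 112 and 93.3 CPM in knockdown libraries, against 242, 267 and 244 CPM in controls in C4-2B (-1.31 ± 0.06), with -0.51 ± 0.05 in 22Rv1 and -0.75 ± 0.07 in DU145. The ternary complex factor ELK3, another SRF partner, fell in 22Rv1 (-1.90 ± 0.16) and DU145 (-0.93 ± 0.05). Its relative ELK4 rose in C4-2B (0.57 ± 0.05) and 22Rv1 (0.27 ± 0.04) and fell in DU145 (-0.39 ± 0.05). The nuclear actin exporter XPO6 rose in 22Rv1 (0.43 ± 0.04) and fell in C4-2B (-0.13 ± 0.05) and DU145 (-0.21 ± 0.05). The actin importer IPO9 likewise rose in 22Rv1 (0.19 ± 0.04) and fell in C4-2B (-0.15 ± 0.05) and DU145 (-0.28 ± 0.05).
Of 12 genes of the Arp2/3 complex, which starts branched filaments, and its activators, 7 rose and 1 fell in 22Rv1 (median 0.27), 2 rose and 8 fell in DU145 (-0.28), and 3 rose and 6 fell in C4-2B (-0.10). The 3 of 12 that rose in C4-2B and the 2 of 12 in DU145 lie near the shares of all genes. ARPC1B rose in C4-2B (0.57 ± 0.04) and 22Rv1 (0.62 ± 0.04) and fell in DU145 (-1.12 ± 0.05). Its alternative subunit ARPC1A (-1.25 ± 0.05) also fell in DU145, and rose in 22Rv1 (0.56 ± 0.04). In DU145 the activators WASF2 (0.43 ± 0.05) and WASF1 (0.15 ± 0.06) were the pair that rose. In 22Rv1 ARPC3 (1.28 ± 0.04) rose most and ACTR2 (-0.10 ± 0.04) was the gene that fell. In C4-2B ARPC3 (0.47 ± 0.05) also rose, WASF2 fell (-0.26 ± 0.04), and ACTR3 (-0.45 ± 0.04) and ARPC2 (-0.33 ± 0.05) fell most. ACTR3 also fell in DU145 (-0.44 ± 0.05) and rose in 22Rv1 (0.24 ± 0.04).
Of 30 further SRF targets and actin-binding genes, 17 of 27 tested fell and 6 rose in DU145 (median -0.26), 13 of 27 fell and 6 rose in 22Rv1 (-0.21), and 12 of 24 fell and 4 rose in C4-2B (-0.13). The counts that rose in DU145 and C4-2B lie near the shares of all genes. TMSB4X, thymosin beta-4, which sequesters actin monomers, was 6.00, 5.14 and 6.53 CPM in knockdown libraries, against 59.4, 61.2 and 65.4 CPM in controls in 22Rv1 (-3.39 ± 0.08). In C4-2B it was 3.84, 3.07 and 4.01 CPM in knockdown libraries, against 0.794, 0.524 and 0.849 CPM in controls (2.32 ± 0.34). It fell in the first line and rose in the other, without overlap, and fell in DU145 (-0.26 ± 0.05). In DU145 TGFB1I1 (-3.01 ± 0.13), Hic-5, and LPP (-1.79 ± 0.12), a zyxin relative, fell most, and FOS (0.73 ± 0.18), an immediate-early factor, and MYO1E (0.67 ± 0.05), a class I myosin, rose most. In 22Rv1 LMOD1 (-3.38 ± 0.36), a muscle actin nucleator that is also among the smooth muscle markers, fell with TMSB4X, and CORO1B (0.95 ± 0.04), an Arp2/3 regulator, and CFL2 (0.50 ± 0.07), muscle cofilin, rose most. CORO1B fell in DU145 (-0.34 ± 0.05). CFL2 rose in DU145 too (0.66 ± 0.05) and fell in C4-2B (-0.25 ± 0.08). FOS also rose in C4-2B (1.47 ± 0.43), and it fell in 22Rv1 (-1.36 ± 0.11). In C4-2B CAPZB (-0.61 ± 0.05), a filament capping subunit, and CAP1 (-0.52 ± 0.04), a monomer recycling factor, fell most. CAP1 also fell in DU145 (-0.43 ± 0.05) and rose in 22Rv1 (0.31 ± 0.04). LMOD1 in 22Rv1, and TMSB4X and FOS in C4-2B, passed the filter on low counts only through the group where they were high. All fold changes in these 3 paragraphs passed at an adjusted p under 0.05.

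Some values carry a counting limit. Exon bases shared with other annotated genes exceeded 5% for 11 of the 40 genes, among them ACTA2 (30.1%), TPM1 (21.4%), CFL1 (19.0%) and TAGLN (11.4%, with PCSK7). ACTG1 has 20 annotated pseudogenes named after it, CNN2 has 11, ACTB and PFN1 have 10 each, and TPM3 and CFL1 have 8 each, so the estimated counts of these genes may hold split reads.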

How the data were processed

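RNA-seq of 18 libraries was read from 3 deposited tables, 1 per line. The submitters' processing notes name STAR, RSEM 1.3.1 and the build GRCh38, and the values deposited by the authors are expected counts, already whole numbers. Annotation and strandedness are not given in the sources used here. In the DU145 table, 92 spike-in entries and 30 second copies of pseudoautosomal genes were left out (0.0503% of reads). A deeper library has a smaller counting error, and the interval given for a read ratio covers that error only.

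Each line was fitted alone in edgeR 4.0.16 (R 4.3.3): filterByExpr with a minimum count of 10 and total of 15, TMM, a robust quasi-likelihood fit and F test, and Benjamini-Hochberg adjustment over all genes tested, with a threshold of 0.05. An adjusted p with no tool named is edgeR's. The standard error was taken as the size of the log2 fold change divided by the root of F. Differences between lines came from 1 fit of 6 groups over the 18445 genes common to the tables. The code was tested on simulated counts.

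The members, lists, markers and tests were chosen with earlier results of these data known. All 40 members are named. Another list and a marker are not reported here. Values by library are given for the 3 factors, the 8 largest changes per line whose groups do not overlap, and members that passed in opposite directions, while each other list shows up to 2 rises and 2 falls per line; CNN2, TPM1, CSRP1, MICAL1 and TMSB4X are also shown by library, chosen after their values were seen. Alternatives were DESeq2 1.42.0, limma 3.58.1 with voom and cyclic loess, RLE, library totals, no filter, CPM of at least 5 in 3 libraries, the replicate number as a block, all 18 libraries in 1 fit, and each library left out. Replicates of a group differed beyond sampling noise, so none was merged.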

Additional observations from a re-analysis of the deposited data

Results flagged for a closer look

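The response to knockdown differed between lines, with opposite directions that each passed, in 32 comparisons of 20 members. Each difference also passed in the fit of all 18 libraries. The comparisons were picked for opposite calls in the same libraries, so a passing difference was largely set by that choice and adds little to the calls. Opposite directions were also common among all genes. Of members passing in both C4-2B and 22Rv1, 71.4% went in opposite directions, against 58.1% of all genes. The shares were 31.6% against 53.3% for C4-2B and DU145, and 44.0% against 47.4% for 22Rv1 and DU145. Values below are differences of log2 fold change, the first line minus the second.

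The response in C4-2B was above that in 22Rv1 for PARVA (3.64), FBLIM1 (2.41), ACTA2 (2.02), TAGLN (1.33), SVIL (1.16) and FLNA (0.68), all of which rose in C4-2B and fell in 22Rv1. It was below that in 22Rv1 for MYL6 (-1.26), PDLIM5 (-1.05), TAGLN2 (-0.96), TPM3 (-0.87), PFN1 (-0.75), ACTB (-0.72), CFL1 (-0.70), ACTG1 (-0.69) and TES (-0.24), all of which fell in C4-2B and rose in 22Rv1. The calls of ACTA2 and TES in both lines and of TAGLN and SVIL in 22Rv1 were not held under every alternative: ACTA2 in C4-2B was lost without control replicate 1 (0.93, adjusted p = 0.0584) and SVIL in 22Rv1 with cyclic loess (-0.26, adjusted p = 0.0950), and the TES difference was -0.08 (adjusted p = 0.255) with cyclic loess.

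Against DU145, the response in C4-2B was higher for TAGLN (5.76), FBLIM1 (2.73), ZYX (1.43), FLNA (1.40), SVIL (1.17) and TLN1 (0.88), which rose in C4-2B and fell in DU145. The response in 22Rv1 was above that in DU145 for CALD1 (1.78), ZYX (1.28), MYL6 (1.14), ACTB (1.13), ACTN1 (0.92), MYH9 (0.82), TAGLN2 (0.77), ACTG1 (0.72), CFL1 (0.63), PDLIM5 (0.53) and PFN1 (0.43), which rose in 22Rv1 and fell in DU145. Of these calls, ZYX in 22Rv1 was lost with cyclic loess (0.07, adjusted p = 0.229), CFL1 in DU145 without knockdown replicate 1 (-0.12, adjusted p = 0.0900), and PFN1 in DU145 with no filter (adjusted p = 0.121) and without any 1 of 5 of the 6 libraries (-0.06 and an adjusted p of 0.329 without knockdown replicate 3). In each of these comparisons the batch label changes with the line, and its part cannot be told apart.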

How the results depend on the processing

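The counts of members that fell in each line, and of those that differed between lines in each direction, stayed within 1.5 times under every alternative run, as did the counts that rose in C4-2B and 22Rv1. The count that rose in DU145, 2, was 3 with library totals. It was 1 with DESeq2 and 1 with all 18 libraries in 1 fit, and 1 to 2 with a library left out (1 without knockdown replicate 2 and without control replicate 2). FHL1 was the gene lost, since it failed the threshold or, with all 18 libraries, was not among the genes tested. Over all genes in C4-2B, library totals gave 3871 that rose and 2922 that fell, against 3068 and 3516 with TMM. In 22Rv1 they gave 4709 and 6492, against 5583 and 5705, and in DU145 5555 and 4176, against 4664 and 4568.

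None of the genes that changed sign had passed the threshold as reported. CALD1 in C4-2B was 0.03 with library totals and 0.02 with cyclic loess, and -0.04 to 0.01 with a library left out. In 22Rv1, TPM2 was 0.52 with cyclic loess (-0.47 to 0.29 with a library left out). TLN1 was -0.07 with library totals, -0.13 with cyclic loess, -0.05 with the stricter filter and -0.04 with all 18 libraries (-0.03 to 0.04 with a library left out), and WDR1 was -0.0042 and -0.06 under the first and second of these. In DU145, MRTFA was 0.02 with library totals (-0.04 to 0.04 with a library left out) and VCL -0.0001 with DESeq2 (-0.01 to 0.06). With a library left out, the range also crossed 0 for MRTFB in C4-2B (-0.02 to 0.13) and DU145 (-0.02 to 0.10), and in C4-2B for MYH9 (-0.0021 to 0.05), MYH10 (-0.01 to 0.08) and FLNC (-0.07 to 0.52). The causes were not tested.

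Replicate numbers did not pair the libraries: same-numbered deviations correlated between -0.132 and 0.09. With the replicate block, 8 members rose and 15 fell in C4-2B, 17 and 16 in 22Rv1, where ACTA2 and TAGLN were not called, and 2 and 30 in DU145. Read numbers most limit CNN1 in 22Rv1 and DU145 and CNN3 and TPM2 in C4-2B.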
